A study of Mus musculus with 17 samples.

Results

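The principal cell of the collecting duct reabsorbs sodium and water in the last part of the nephron. Sodium enters through the epithelial sodium channel, whose α, β and γ subunits are encoded by Scnn1a, Scnn1b and Scnn1g, and water enters through aquaporin 2 (Aqp2), which vasopressin and cyclic AMP send to the apical membrane, and leaves through aquaporin 3 (Aqp3) in the basolateral membrane. Aldosterone acts through the mineralocorticoid receptor (Nr3c2), 11β-hydroxysteroid dehydrogenase 2 (Hsd11b2) keeps cortisol and corticosterone from occupying that receptor, and the kinase SGK1 (Sgk1) is a classical target that holds the sodium channel at the cell surface. Gata3 and Elf5 are transcription factors of the collecting duct lineage. These 10 genes, of 55413 in the annotation, were taken as a named list and not by a rule on their values. Earlier results of these data were known when the list was chosen. Their accessible chromatin was read from ATAC-seq of mouse kidney, an assay in which a transposase cuts open chromatin and the peak caller reports each peak's highest point, its summit.

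Libraries came from 17 male mice, each made from 20000 kidney cells. The 5 Ctrl mice were C57BL/6 given saline. The 6 Case mice were db/db (BKS.Cg-Dock7m +/+ Leprdb/J), which lack the long leptin receptor and become obese and diabetic, also given saline. The 6 Dapa mice were db/db given the SGLT2 inhibitor dapagliflozin at 1 mg per kg per day for 6 weeks, and mice were 8 weeks old at the start. Leptin receptor genotype, diabetes and strain background differ together between Ctrl and both db/db groups and cannot be told apart. Each mouse is a replicate, the labels name no batch, and no cell type was sorted. Because the tissue is a mixture, fewer principal cells and less open chromatin per principal cell cannot be told apart in any value that follows.

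The lists were longest in Ctrl, with a mean of 45444 ± 7197 summits (SD, n = 5), against 37299 ± 8784 in the 6 Case and 40574 ± 6987 in the 6 Dapa libraries, and read depth is unknown. To compare like with like, the best 29702 summits of every library were used, as many as the library with the fewest held. A gene's level is the rank percentile of its strongest summit from 10 kb upstream of the gene to its end, where 100 is the top of the library's list and 0 means no summit. In these lists the proximal tubule markers had a summit in 6 to 8 of 8 genes per library, the general kidney epithelium markers in 5 to 8 of 8, the intercalated cell markers in 2 to 5 of 8 and the leukocyte markers in 2 to 5 of 8. Podocyte markers had one in 3 to 7 of 8, thick limb and distal tubule markers in 2 to 6 of 8 and endothelial markers in 1 to 5 of 8. Some libraries stood apart. Case 3 and Dapa 8 shared 927 regions found in no other library, against 71.5 for the median pair, and Case 2 and Dapa 9 had 0.616% and 0.529% of their summits on the Y chromosome against 0.0842 to 0.286% in the other db/db mice and 0.300 to 0.542% in Ctrl. Results that rest on these libraries are given with and without them.

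The sequences under the summits that carry the results are shown here from the mm10 genome, plus strand, as 200 bases centred on the median summit, with untranslated bases left out. Capitals mark matches, on either strand, to short core letters, which are AGATAA for GATA factors, AGGAAG for ETS factors, AGAACA for steroid receptors, GTTAAT for HNF1, TGANTCA for AP-1, TGACG for the cyclic AMP response element (CRE), AACCGG for grainyhead factors and GCCNNNGGC for AP-2. The Nr3c2 sequences are its strongest promoter and the 2 places where its level differed most between db/db groups. The Sgk1 and Scnn1g sequences are the sites that led in nearly every mouse, and the Elf5 sequence is the site that led in 14 libraries. The Aqp3, Hsd11b2 and Gata3 sequences are sites present in part of the mice.
Nr3c2 inner promoter, chr8:76902040-76902239: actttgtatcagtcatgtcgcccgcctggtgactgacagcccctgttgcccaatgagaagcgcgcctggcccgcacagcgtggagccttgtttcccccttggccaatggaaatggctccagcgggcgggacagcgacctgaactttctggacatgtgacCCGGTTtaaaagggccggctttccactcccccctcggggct
Nr3c2 outer promoter, chr8:76899111-76899310: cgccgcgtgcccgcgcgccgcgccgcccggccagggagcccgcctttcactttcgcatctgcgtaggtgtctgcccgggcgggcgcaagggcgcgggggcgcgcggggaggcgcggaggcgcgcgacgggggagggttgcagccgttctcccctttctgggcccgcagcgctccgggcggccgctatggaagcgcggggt
Nr3c2 distal intron, chr8:77132940-77133139: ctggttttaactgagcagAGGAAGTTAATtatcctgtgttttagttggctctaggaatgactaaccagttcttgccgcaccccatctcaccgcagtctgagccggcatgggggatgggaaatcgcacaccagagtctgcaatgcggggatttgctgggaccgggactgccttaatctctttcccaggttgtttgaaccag
Sgk1 promoter, chr10:21994497-21994665: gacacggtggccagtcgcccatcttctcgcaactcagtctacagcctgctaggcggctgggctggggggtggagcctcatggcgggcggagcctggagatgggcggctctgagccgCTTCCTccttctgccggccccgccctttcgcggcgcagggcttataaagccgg
Scnn1g promoter, chr7:121734163-121734362: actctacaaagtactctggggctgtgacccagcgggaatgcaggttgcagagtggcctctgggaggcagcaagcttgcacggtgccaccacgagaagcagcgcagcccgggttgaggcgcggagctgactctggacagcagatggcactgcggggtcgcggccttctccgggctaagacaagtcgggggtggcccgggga
Elf5 intron, chr2:103430792-103430991: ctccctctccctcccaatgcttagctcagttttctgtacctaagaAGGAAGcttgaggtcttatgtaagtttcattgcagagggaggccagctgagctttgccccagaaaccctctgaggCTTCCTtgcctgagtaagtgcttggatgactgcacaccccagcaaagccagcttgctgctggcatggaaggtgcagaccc
Aqp3 promoter, chr4:41098184-41098289: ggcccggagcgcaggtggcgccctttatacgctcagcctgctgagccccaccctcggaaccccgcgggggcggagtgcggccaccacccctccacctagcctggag
Aqp3 intron, chr4:41096196-41096395: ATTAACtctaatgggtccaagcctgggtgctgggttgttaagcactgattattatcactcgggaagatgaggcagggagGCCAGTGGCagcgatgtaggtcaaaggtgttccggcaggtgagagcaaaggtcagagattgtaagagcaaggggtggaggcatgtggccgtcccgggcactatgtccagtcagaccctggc
Hsd11b2 upstream site, chr8:105516007-105516206: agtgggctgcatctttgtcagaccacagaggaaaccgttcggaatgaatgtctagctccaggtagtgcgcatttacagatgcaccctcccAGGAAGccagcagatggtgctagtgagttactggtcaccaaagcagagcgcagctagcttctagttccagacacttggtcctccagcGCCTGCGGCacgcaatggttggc
Gata3 intron, chr2:9879620-9879819: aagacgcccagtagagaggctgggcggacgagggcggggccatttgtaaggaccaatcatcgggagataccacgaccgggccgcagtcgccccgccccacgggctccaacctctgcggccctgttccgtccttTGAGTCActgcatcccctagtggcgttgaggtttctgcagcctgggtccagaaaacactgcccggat

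The 10 genes spread over nearly the whole range of levels, from the mineralocorticoid receptor at the top to the sodium channel β subunit at the bottom. Over the 17 libraries the mean rank percentile was 95.1 ± 3.29 (SD, n = 17) for Nr3c2 and 90.2 ± 3.86 for Sgk1, higher than 95.6% and 89.4% of the protein-coding genes. The γ and α channel subunits followed with 69.9 ± 21.5 for Scnn1g and 65.0 ± 21.5 for Scnn1a. These 4 genes had a summit in all 17 libraries, as did 41.5% of protein-coding genes.

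The middle of the order was held by genes with a summit in part of the equal-length lists. Elf5 had one in 15 libraries (44.5 ± 24.8), Aqp3 in 14 (29.2 ± 21.7) and Hsd11b2 in 10 (25.5 ± 26.4). In the complete lists these numbers were 16, 17 and 14. The lowest levels belonged to Gata3 (7 libraries, 8.34 ± 14.8), Aqp2 (4 libraries, 5.64 ± 14.0) and Scnn1b (4 libraries, 2.28 ± 4.8). Aqp2, the water channel by which principal cells are recognised, was thus above only 30.4% of the protein-coding genes in whole kidney.

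The order was set by these same values, so the steps between neighbours are given as a description, without a test. Nr3c2 lay above Sgk1 in 15 of 17 libraries, with a difference of 4.84 ± 4.44 (SD over libraries), the only step larger than its SD. Sgk1 lay above Scnn1g in 16 libraries (20.3 ± 20.4), Scnn1a above Elf5 in 12 (20.5 ± 28.5) and Hsd11b2 above Gata3 in 9 (17.2 ± 24.0). The other 5 neighbouring pairs differed by less than their spread as well, and the higher gene led in 4 to 9 libraries. With the window reduced to 2 kb upstream, Scnn1a (39.5 ± 28.9) fell below Elf5 (44.5 ± 24.8), and Hsd11b2 (5.30 ± 12.2) below Gata3 (8.34 ± 14.8) and Aqp2 (5.64 ± 14.0).

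**Figure D1:**
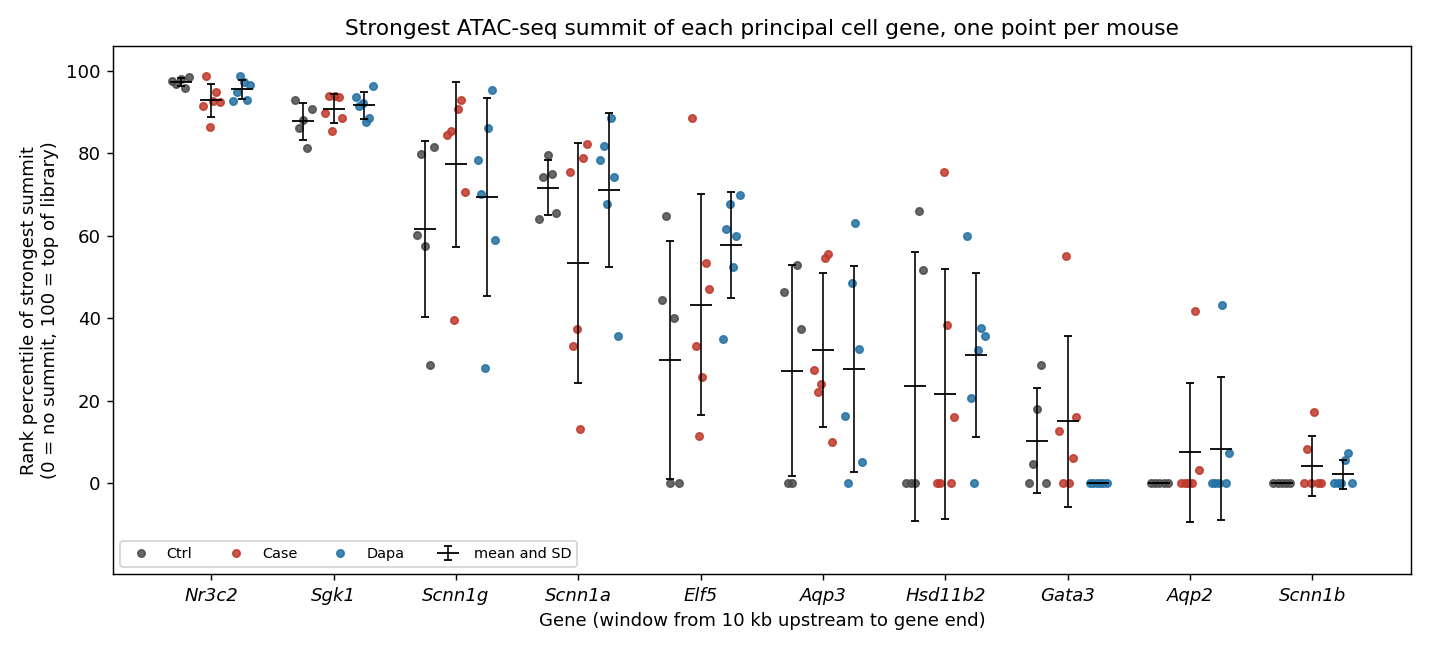
Rank percentile of the strongest summit of each gene (vertical axis, 100 = top of the library, 0 = no summit) in 5 Ctrl, 6 Case and 6 Dapa mice, 1 point per mouse, with the group mean and SD. Nr3c2 and Sgk1 stay above 81 in every mouse, while Gata3, Aqp2 and Scnn1b lie at 0 in most mice.

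The level takes the strongest of all summits in a window, and the windows differed in size. They ran from 15.2 kb for Hsd11b2 to 356 kb for Nr3c2, with a median of 43.5 kb against 27.4 kb for protein-coding genes. Counted per length, the order changed. Aqp3 had the most, 0.837 summits per library per 10 kb, more than 89.5% of protein-coding genes, followed by Scnn1a with 0.652 and Hsd11b2 with 0.463. Nr3c2, first by its strongest summit, had 0.0960 per 10 kb, and Scnn1b was lowest by both measures with 0.0463. The median of the 10 genes was 0.203 and that of protein-coding genes 0.201.

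Promoters separated the genes more sharply than their windows, though the number of annotated starts searched differed between genes. It was 1 for Aqp2, Scnn1g and Hsd11b2, 7 for Nr3c2, Scnn1a and Elf5, and 11 for Sgk1. Within 1 kb of an annotated transcription start, Nr3c2 and Sgk1 had a summit in 17 libraries, Scnn1g in 16 and Aqp3 in 12. Scnn1a had one in 5 libraries, Elf5 in 4 and Hsd11b2 in 3, and among all summits these were 5, 4 and 9. Gata3, Aqp2 and Scnn1b had none in any equal-length list, and among all summits Aqp2 and Scnn1b still had none at a start and Gata3 had 1. For comparison, 31.6% of protein-coding genes had a promoter summit in all 17 libraries and 32.9% in none.

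**Figure D2:**
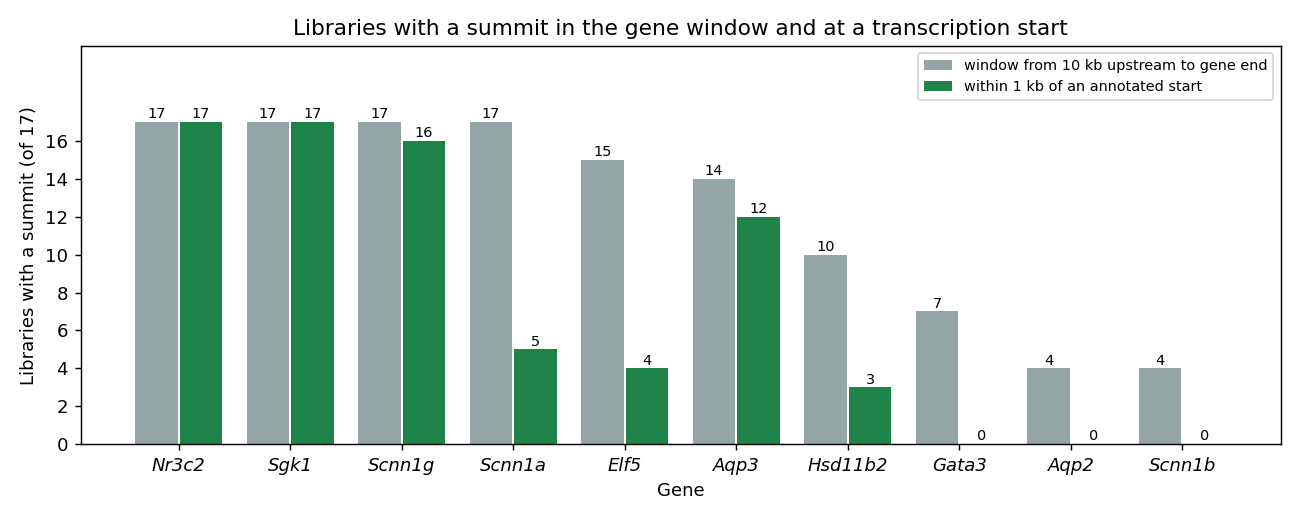
Number of the 17 libraries (vertical axis) with a summit in the window from 10 kb upstream to the gene end, and within 1 kb of an annotated start, for each gene. The paired bars differ by at most 2 libraries for Nr3c2, Sgk1, Scnn1g and Aqp3 and by far more for Scnn1a and Elf5.

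Of the 10 genes, a Ctrl library had a window summit at 6.20 ± 1.10 (SD, n = 5), a Case library at 7.83 ± 0.753 (n = 6) and a Dapa library at 7.33 ± 1.21 (n = 6). The Ctrl counts ran from 5 to 8, the Case counts from 7 to 9 and the Dapa counts from 6 to 9, so the groups overlapped. Ctrl did not stay lowest with other lists: with scores of at least 5 the means were 6.2 for Ctrl, 4.83 for Case and 6.00 for Dapa, and with the best 14851 summits 4.6, 4.33 and 4.83. With promoters alone the counts were 4.2 ± 1.30, 4.50 ± 1.05 and 4.33 ± 0.816. Among protein-coding genes a window summit was found for 62.8 ± 0.505% in Ctrl, 61.1 ± 0.876% in Case and 61.8 ± 1.21% in Dapa, and a promoter summit was found for 51.6 ± 0.440% in Ctrl, against 47.8 ± 1.61% in Case and 48.5 ± 1.69% in Dapa.

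Within the windows, 25 regions (summits extended by 250 bp to each side and merged over libraries) were found in at least 2 libraries, of 52444 such regions genome-wide. A further 25 appeared in 1 library only. Nr3c2 had 7 of the shared regions, Scnn1a and Elf5 4 each, and Scnn1b none: its 5 regions were each private to a single library. Only 3 regions were found in all 17 libraries, at the Nr3c2 inner promoter, at the Sgk1 promoter and upstream of Scnn1a.

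The mineralocorticoid receptor gene lies at chr8:76899442-77245012 on the plus strand. Its strongest summit fell in the same region in all 17 libraries, chr8:76901826-76902518, which is intronic in the longest transcript and lies at an inner start used by shorter ones. The strongest summit stood at −212 to −20 bp from that start (negative values lie upstream), with a median of −148 bp. The outermost start carried a separate region, chr8:76898919-76899530, in 12 libraries (33.8 ± 25.4), with summits at −273 to −162 bp from the start. This region also overlaps Gm10649, so its signal cannot be assigned to Nr3c2 alone. Another, in the intron at chr8:77132757-77133389, was found in 14 libraries (50.9 ± 30.1) 5027 bp downstream of another annotated start.

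SGK1 is transcribed from several starts, and the gene spans chr10:21882184-21999903 on the plus strand. Its strongest summit lay in chr10:21994295-21994880 in all 17 libraries, at −121 to −36 bp from one of the inner starts. A neighbouring region at chr10:21992923-21993493, chosen for description after its values were seen, was found in 12 libraries (37.3 ± 26.9) with summits at −717 to −647 bp from a different inner start. The RefSeq promoter entry of the outermost start held no summit in any library.

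The 3 sodium channel subunits differed in where their summits lay. Scnn1g (chr7:121734479-121768475, plus strand) was led by its own promoter, chr7:121733970-121734547, in 16 of 17 libraries, with the summit at −259 to −182 bp from the start. In Case 3 the promoter had no summit and an intronic region led. Scnn1b (chr7:121865038-121918514, plus strand), its neighbour on the chromosome, had a window summit in 2 Case mice (8.34 and 17.3) and 2 Dapa mice (5.65 and 7.44) and in no Ctrl mouse. Among all summits it had one in 4 of 5 Ctrl mice and in 4 of 6 mice of each db/db group, so the absence from Ctrl did not hold in the complete lists.

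Scnn1a (chr6:125320659-125344943, plus strand) had a high level that mostly did not come from its own promoter. In 10 of 17 libraries its strongest summit lay in chr6:125313554-125314188 alone, at −6757 bp from the gene start and 17 bp from the start of Ltbr, the lymphotoxin β receptor gene. In 3 it lay in coding sequence at chr6:125330875-125331435, a region found in 11 libraries (34.3 ± 32.8), in 2 these regions tied, and in Case 3 and Case 4 a region found in no other library led. With the window reduced to 2 kb upstream, Scnn1a had a summit in 14 libraries and its mean fell to 39.5 ± 28.9.

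The 2 water channels shared little. Aqp3 (chr4:41092722-41098183, minus strand) was led by its promoter, chr4:41097296-41098510, in 9 libraries and by the intronic region chr4:41095901-41096628 in 5. Promoter summits ranged from −77 to 292 bp from the start, the widest scatter among the promoters described here. That width rests on Case 6, at 292 bp, since the next highest was 55 bp in Dapa 10. Aqp2 (chr15:99579055-99584547, plus strand) had a single shared region, chr15:99583453-99584359, in coding sequence 4823 bp from its start, present in 2 Case and 2 Dapa mice.

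Hsd11b2 (chr8:105518755-105523988, plus strand) was led in 9 of the 10 libraries with a summit by a site at −2689 to −2611 bp from its start, chr8:105515816-105516394. With the window reduced to 2 kb upstream that site was lost and 3 libraries kept a summit (5.30 ± 12.2). Gata3 (chr2:9857078-9890034, minus strand) was led in 6 of 7 libraries by chr2:9879377-9880018, an intronic region at −1168 to −1027 bp from an inner start, just outside the 1 kb promoter limit. Elf5 (chr2:103411688-103450989, plus strand) was led in 14 of 15 libraries by the intronic region chr2:103430594-103431222, 6016 to 6144 bp downstream of its nearest start.

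**Figure D3:**
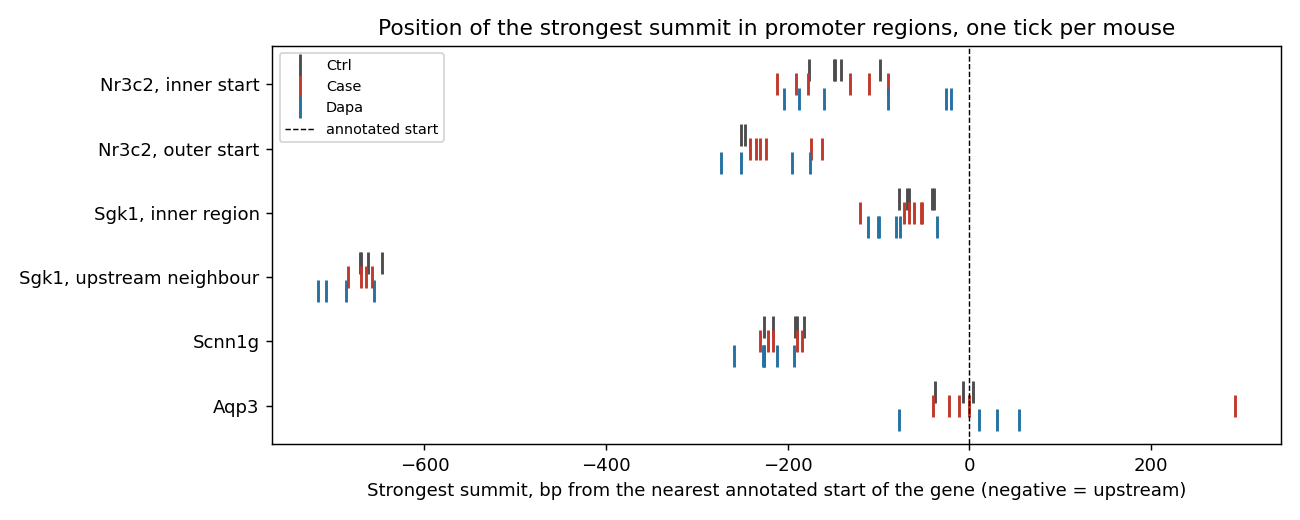
Distance in bp of the strongest summit from the gene's nearest annotated start in the 6 promoter regions found in at least 12 libraries, 2 each of Nr3c2 and Sgk1 and 1 each of Scnn1g and Aqp3 (horizontal axis, negative = upstream), 1 tick per mouse, coloured by group. The ticks span 77 bp for Scnn1g and 85 bp for the inner Sgk1 region but 369 bp for Aqp3, where Case 6 alone lies beyond 55 bp. In each of these 6 rows the range of the Dapa ticks overlaps those of Ctrl and Case. At the Nr3c2 outer promoter the Ctrl ticks, from 2 mice, lie just upstream of all Case ticks. The promoter regions of Scnn1a, Elf5 and Hsd11b2, found in 2 to 4 libraries, are not drawn.

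Returning to the sequences, the 25 regions had a median GC content of 61.5% (40.5 to 79.0%) against 53.0% over all regions, and the outer Nr3c2 promoter, at 79.0% with 35 CpG sites, was the most GC-rich together with the region by Ltbr. ETS letters were present in 9 of the 25 (36.0%) and in 22.8% of all 52435 regions read in the same way. HNF1 letters were found in 3 (9.48% of all regions), AP-2 letters in 4 (11.0%), and AP-1, CRE and grainyhead letters in 1 each (6.75%, 12.3% and 3.94%). GATA and steroid receptor letters were found in none (4.93% and 12.9% of all regions). The GC content of the regions and of the letters differ, and a match or its absence says nothing of binding.

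Individual sequences carried different letters. The Nr3c2 inner promoter held the grainyhead match, written CCGGTT on the plus strand, and the outer one held none of the 8. In the Nr3c2 distal intron the ETS and HNF1 letters overlap by 1 base in AGGAAGTTAAT. The Elf5 intron, at a gene that encodes an ETS factor, held 2 ETS matches, and the Gata3 intron held the AP-1 match.

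The Aqp2 promoter is shown because no library had a summit there although it holds letters of 4 of the factors searched, as given by RefSeq for GRCm38.p6 on the plus strand over the 250 bases before its start.
Aqp2 promoter, chr15:99578806-99579055: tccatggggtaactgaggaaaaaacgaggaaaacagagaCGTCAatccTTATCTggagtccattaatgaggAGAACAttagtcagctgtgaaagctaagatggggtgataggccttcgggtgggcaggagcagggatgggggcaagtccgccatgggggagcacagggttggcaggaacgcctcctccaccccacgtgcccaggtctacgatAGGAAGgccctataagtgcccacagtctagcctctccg
It holds GATA, ETS, steroid receptor and CRE letters once each, found in 9.99%, 29.5%, 16.1% and 17.8% of the 32851 RefSeq promoter entries searched over the same length. RefSeq entries matched 8 of the 10 genes.

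The first comparison asked what differs in untreated db/db kidney. No gene of the 10 passed an adjusted p under 0.05 in Case against Ctrl, where 0% of the 28503 genes tested passed by the exact permutation test of rank. At an unadjusted p under 0.05, 1 of the 10 was below the threshold against 10.9% of all genes. That gene was Nr3c2. Its values in Ctrl were 97.5, 96.7, 97.9, 95.8 and 98.5, in Case they ran from 86.4 through a median of 92.6 to 98.8, and in Dapa from 92.7 through 95.7 to 98.7. The Case mice were lower apart from Case 2, which was the highest of all 17, so the groups overlapped. The difference in means, Case minus Ctrl, was −4.48 percentiles (92.8 ± 4.08, n = 6, against 97.3 ± 1.05, n = 5; exact permutation p = 0.0411, adjusted p = 0.422). Without Case 3 the difference was −3.21 (exact permutation p = 0.0714), without Case 2 it was −5.68 (p = 0.00794), and without both −4.39 (p = 0.00794). Of the 11 fits that left out a mouse of these groups, 2 kept an unadjusted p under 0.05.

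The other 9 genes had unadjusted p from 0.195 to 0.957 between Case and Ctrl. Scnn1a had the largest difference, with 64.0, 74.3, 79.5, 75.0 and 65.5 in Ctrl and 13.2 to 82.3 (median 56.4) in Case. Ctrl mice were close together and Case mice fell into a low and a high part, with Case 2, 3 and 4 under every Ctrl mouse (difference −18.3, exact permutation p = 0.195, adjusted p = 0.668). Without Case 2 and Case 3 the difference was −9.22 (exact permutation p = 0.849). Scnn1g went the other way without passing the test, with 60.1, 79.7, 57.6, 28.8 and 81.6 in Ctrl and 39.6 to 92.9 (median 84.9) in Case (15.7, exact permutation p = 0.245, adjusted p = 0.734). At the promoter region alone, where Case 3 was at 0, the difference was 9.13 (exact permutation p = 0.619). By window, Case 3 was the lowest Case mouse. Leaving it out gave 23.3 (exact permutation p = 0.0397, not adjusted), leaving out Case 2 gave 14.1 (p = 0.333) and leaving out both gave 23.1 (p = 0.0635). The median difference over the 10 genes was 4.47 percentiles against −0.209 over all genes. By Fisher's exact test on presence, 2 of the 10 could be tested and neither had a p under 0.05, against 7.93% of all genes.

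Dapa against Case asked what differs with dapagliflozin within db/db. No gene of the 10 passed at an adjusted or an unadjusted p under 0.05, with 3.27% of all genes at the unadjusted threshold by rank. By presence 1.22% of all genes were below it, and no gene of the 10 could be tested. The nearest was Gata3, the collecting duct lineage factor. Its values in Ctrl were 0, 4.81, 18.1, 28.8 and 0, in Case they were 12.8, 0, 55.1, 0, 6.25 and 16.0, and in all 6 Dapa mice they were 0. Presence was thus 3 of 5 for Ctrl, 4 of 6 for Case and 0 of 6 for Dapa (1 of 6 among all summits, in Dapa 11), and the zeros of the other groups overlap with Dapa (−15.0 against Case, exact permutation p = 0.0606, adjusted p = 1; −10.3 against Ctrl, exact permutation p = 0.0606, adjusted p = 0.446). In Case 1 the summit lay in a region found in no other library. At the intronic region that led in the other libraries, Case had a summit in 3 of 6 mice. Dapa minus Case there was −12.9 (exact permutation p = 0.182). For the whole window without Case 3, the highest Case mouse, the difference from Case was −6.99 (exact permutation p = 0.0606). Without Case 2 it was −18.0 (exact permutation p = 0.0152). Without Case 2, Case 3 and Dapa 8 it was −8.74 (exact permutation p = 0.0476), and without Dapa 9 as well −8.74 (p = 0.143). Nr3c2 was higher in Dapa than in Case by 2.65 (exact permutation p = 0.206), by 3.85 without Case 2 (p = 0.0411) and by 3.21 without Case 2 and Dapa 9 (p = 0.0794). None of the values without libraries is adjusted.

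Dapa against Ctrl likewise gave 0 of 10 genes at either threshold, with 11.1% of all genes at the unadjusted one by rank and 5.88% by presence, where 1 of the 10 could be tested. Elf5, an ETS factor of secretory and ductal epithelia, was nearest after Gata3. It read 44.4, 64.9, 0, 39.99 and 0 in Ctrl, 11.4 to 88.6 (median 40.2) in Case and 35.0 to 69.9 (median 60.8) in Dapa. Every Dapa mouse had a summit and 2 Ctrl mice had none, yet the highest Ctrl value lay within the Dapa range (27.9, exact permutation p = 0.0649, adjusted p = 0.462). Over all 12 db/db mice against Ctrl no gene of the 10 passed at either threshold, with 12.2% of all genes at the unadjusted one by rank and 7.21% by presence, where 5 of the 10 could be tested. Without Dapa 9, Nr3c2 was −2.47 in Dapa against Ctrl (exact permutation p = 0.0476, against 0.156 with all mice). In db/db against Ctrl it was −3.16 (exact permutation p = 0.0658) and −4.08 without Case 2 and Dapa 9 (p = 0.00966). Sgk1 without Case 3 (3.97, exact permutation p = 0.0437) and Scnn1g without Case 2, Case 3, Dapa 8 and Dapa 9 (20.7, p = 0.0404) were also under 0.05 in db/db against Ctrl, unadjusted. With all mice Sgk1 was 3.43 (exact permutation p = 0.0958) and Scnn1g 11.8 (p = 0.319) in db/db against Ctrl. The values without libraries are named because they fell under 0.05. Both comparisons share the Ctrl mice with Case against Ctrl.

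The remaining genes showed no separation of groups. Sgk1 ran from 81.3 to 93.0 in Ctrl, 85.3 to 93.9 in Case and 87.6 to 96.3 in Dapa, and Aqp3 from 0 to 53.0, 9.96 to 55.5 and 0 to 63.2. Hsd11b2 read 0, 0, 0, 66.0 and 51.6 in Ctrl, 0 to 75.4 in Case and 0 to 59.9 in Dapa, with summits in 2 of 5, 3 of 6 and 5 of 6 mice. Among all summits Hsd11b2 had one in 4 of 5, 5 of 6 and 5 of 6, so this order was not seen there. Aqp2 was 0 in every Ctrl mouse, 41.8 and 3.35 in 2 Case mice and 43.3 and 7.39 in 2 Dapa mice (4 of 12 db/db against 0 of 5 Ctrl, Fisher's exact p = 0.261, adjusted p = 0.801). Among all summits it had one in 1 of 5 Ctrl and in 3 of 6 mice of each db/db group.

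Region by region, no region of the 25 passed an adjusted p under 0.05 in any of the 4 comparisons, while 0.353% of all regions did in db/db against Ctrl by rank and 0% in the other 3. At an unadjusted p under 0.05 by rank, 1 of the 25 passed in Case against Ctrl (8.16% of all regions), 2 in Dapa against Case (2.14%) and 0 in the others (7.88% and 10.5%). The first was the Nr3c2 inner promoter, with the values given above for the gene. By presence, 1 of 13 testable regions passed in db/db against Ctrl (9.33%) and 0 in the others (10.3%, 1.20% and 7.87%).

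The 2 regions of Dapa against Case are both in Nr3c2 and differed in opposite directions. At the outer promoter the Ctrl mice read 0, 62.6, 0, 58.2 and 0, the Case mice 42.8, 55.4, 67.0, 45.1, 64.4 and 44.1, and the Dapa mice 29.8, 33.5, 0, 0, 22.2 and 49.1. All Case mice had a summit, 2 Dapa and 3 Ctrl mice had none, and 1 Dapa mouse lay within the Case range. Dapa minus Case was −30.7 percentiles (22.4 ± 19.5 against 53.1 ± 10.7, n = 6 each, exact permutation p = 0.00866, adjusted p = 1). Leaving out each mouse in turn gave p from 0.00216 to 0.0195. Over all summits the difference was −24.2 with an exact permutation p of 0.102, with the best 14851 summits it was −12.3 (p = 0.182) and with scores of at least 5 it was −15.0 (p = 0.223). The Case lists were the shortest on average.

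At the distal intron the order was reversed. Ctrl mice read 74.1, 90.5, 70.6, 0 and 77.5, Case mice 39.0, 0, 30.9, 0, 48.0 and 54.6, and Dapa mice 70.5, 61.6, 81.6, 80.1, 27.2 and 59.0. All Dapa mice had a summit, and 5 of the 6 lay above the highest Case mouse. Dapa was 34.6 percentiles above Case (63.3 ± 19.96 against 28.7 ± 23.7, n = 6 each, exact permutation p = 0.0238, adjusted p = 1). Without Dapa 9 or without Dapa 10 the p was 0.0519, without Case 2, which had no summit there, the difference was 28.9 with a p of 0.0455, without Case 3 the difference was 35.0 with a p of 0.0390, and without Dapa 8 it was 34.9 with a p of 0.0390.

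In Aqp3 the intronic region was found in 7 of 12 db/db mice and 0 of 5 Ctrl mice (Fisher's exact p = 0.0441, adjusted p = 0.466). Case mice with it were 3 of 6 and Dapa mice 4 of 6. Leaving out each mouse in turn, the exact p was under 0.05 in 5 of 17 fits, at 0.0337 without Case 2, Case 3 or Dapa 8 and at 0.0934 without Dapa 9. With scores of at least 5 it was 0.261. The difference was not there over all summits, where 3 of 5 Ctrl mice had the region, at 29.0, 1.86 and 7.11 percentiles of their complete lists, and the exact p was 1.

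**Figure D4:**
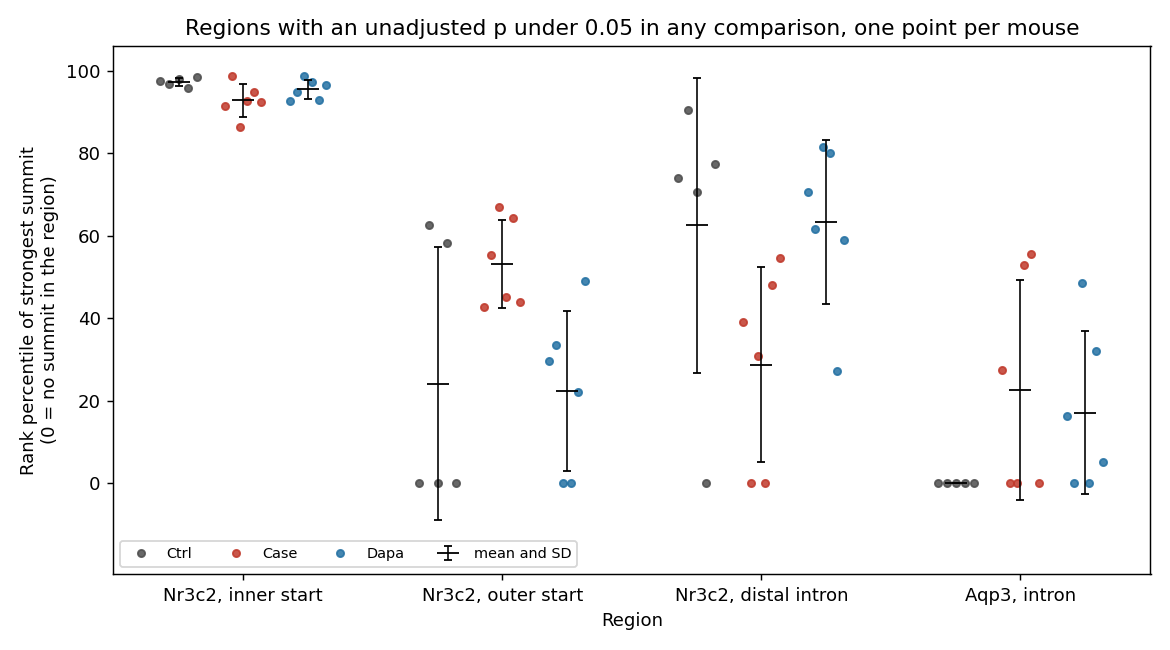
Rank percentile of the strongest summit (vertical axis, 100 = top of the library, 0 = no summit) in the 4 regions with an unadjusted p under 0.05 in any comparison, 1 point per mouse, with the group mean and SD. Case lies above Dapa at the Nr3c2 outer promoter and below it at the distal intron, with overlap in both.

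The 26 further genes of the pathway (vasopressin signalling, sodium channel processing, corticosteroid receptor chaperones and targets, and epithelial transcription factors) had a summit in 19.4 ± 1.22 genes per library, or 74.4% against 61.9% of all protein-coding genes. Ctrl libraries averaged 20.4 ± 1.14 of these genes, Case libraries 19 ± 1.26 and Dapa libraries 18.8 ± 0.753, so here Ctrl was the highest group, where it was the lowest for the 10 members. In all 17 libraries 15 of them had one, while Avpr2, the vasopressin receptor, and Tfap2b had one in none and Foxa1 in 1. None of the 23 tested by rank passed an adjusted p under 0.05 in any comparison, and none was lower at an unadjusted p under 0.05. Of all genes 7.17% were lower at that threshold in Case against Ctrl, 1.39% in Dapa against Case, 6.8% in Dapa against Ctrl and 8.07% in db/db against Ctrl, and against shares this low nothing is read from 0 of 23. Higher at that threshold were 3 in Case against Ctrl (3.69% of all genes), 3 in Dapa against Ctrl (4.29%) and 4 in db/db against Ctrl (4.15%).

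Nedd4l, the ubiquitin ligase that removes the sodium channel from the surface, was 96.1 in Case and 89.1 in Ctrl (exact permutation p = 0.00216, the smallest this design can give, adjusted p = 0.271), with a difference of −0.949 when only summits within 1 kb of its starts were used. It was also higher in Dapa than in Ctrl by 5.15 (exact permutation p = 0.0325, adjusted p = 0.383). Hsp90aa1, a chaperone of steroid receptors, was 78.4 in Case and 61.6 in Ctrl (exact permutation p = 0.0173, adjusted p = 0.319).

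In Dapa against Ctrl, 2 further genes were higher at this threshold. Prss8, the channel-activating protease prostasin, was 92.7 in Dapa and 82.3 in Ctrl (exact permutation p = 0.0130, adjusted p = 0.318), and the difference was −11.7 when only summits within 1 kb of its starts were used. Zbtb16, a corticosteroid-induced factor, was 71.1 in Dapa and 51.7 in Ctrl (exact permutation p = 0.0455, adjusted p = 0.433). In db/db against Ctrl, values are given for Nedd4l (6.05, exact permutation p = 0.00178, adjusted p = 0.119), Prss8 (9.5, exact p = 0.0102, adjusted p = 0.238) and Hsp90aa1 (14.7, exact p = 0.0385, adjusted p = 0.372). The Nedd4l and Prss8 differences turned negative there too when only summits within 1 kb of their starts were used. Dapa against Case had no pathway gene higher at this threshold. Leaving out each mouse in turn, the unadjusted p stayed under 0.05 in 4 of 11 fits for Nedd4l and 3 of 11 for Zbtb16 in Dapa against Ctrl, and in 8 of 17 for Hsp90aa1 in db/db against Ctrl, and in every fit for the other pathway results given here. Over all summits Hsp90aa1 was 8.56 in Case against Ctrl (exact permutation p = 0.0844) and 7.24 in db/db against Ctrl (p = 0.151), Zbtb16 was 10.9 (p = 0.119) and Prss8 in db/db against Ctrl was 4.83 (p = 0.0995). With scores of at least 5 these 4 had p from 0.215 to 0.248, and Nedd4l in Dapa against Ctrl had 0.162.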

How the data were processed

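ATAC-seq of kidney cells from 17 mice was deposited as 1 list of MACS2 summits per library. The authors aligned reads to mm10 with Bowtie2, removed PCR duplicates and blacklisted regions, shifted reads by strand and called peaks, here as separate lists per library. The deposited score of a summit is on the −log10 scale, of a p-value or a q-value (which of them is not given in the sources used here), and it moves with depth, so it served only to rank summits within a library. No read counts were given, depth is unknown, and no counting interval was computed.

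Each list was reduced to its 29702 highest-scoring summits, equal scores at the end being taken in a seeded random order. Genes were GENCODE vM21 models (mm10). A gene's value was the rank percentile of its strongest summit from 10 kb upstream to the gene end. Regions were summits extended by 250 bp, merged and found in at least 2 libraries. Presence was compared by Fisher's exact test and rank by an exact permutation test of the difference in means, both 2-sided, with Benjamini-Hochberg adjustment over all genes or regions that could be tested and a threshold of 0.05. Comparisons were Case, Dapa and both db/db groups against Ctrl, and Dapa against Case. The smallest permutation p was 0.00216, or 0.000162 with 12 db/db mice. Mice were grouped by the labels, and p-values measure the spread between them.

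All 10 genes were named, with each gene's highest-ranked region, every region and the pathway genes with an unadjusted p under 0.05, of which 1 is not reported here. The members and lists were chosen with earlier results of these data known. Alternatives were all summits, the best 14851 summits, scores of at least 5, windows of 2 kb and of 1 kb around starts, regions extended by 100 or by 500 bp, regions required in 3 libraries, log2 rank, a replicate block, each mouse left out, and, added after seeing the data, equal scores all kept or all left out, and Case 2, Case 3, Dapa 8 and Dapa 9 left out in combinations. Python 3.11.15, numpy 2.4.6, pandas 2.3.3, scipy 1.17.1 and matplotlib 3.10.9 were used, and the tests were tested on simulated data. No pair of lists was identical, with at most 0.797% of positions shared to the base.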

Additional observations from a re-analysis of the deposited data

Results flagged for a closer look

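In 3 of 30 groups of values (10 genes in 3 groups), a single mouse stood far from the others of its group. The share of groups that chance gives is known for continuous values and does not apply to these, since 4 of the 6 values in each Aqp2 group and 2 of the 6 in the Gata3 group were 0. Aqp2 in Case 5 was at the 41.8 percentile, with 3.35 in the next Case mouse and 0 in the rest. Aqp2 in Dapa 10 was at 43.3, with 7.39 in the next Dapa mouse and 0 in the rest. Gata3 in Case 3 was at 55.1, with 16.0 in the next Case mouse, and Case 3 is a library that shares 927 regions with Dapa 8 alone.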

How the results depend on the processing

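No gene or region among the members passed an adjusted p under 0.05 under any alternative, in any comparison, and unadjusted counts ran from 0 to 3. The number of members with a summit moved with the list. It was 8.20 in Ctrl and 8.67 in Case with all summits, 4.6, 4.33 and 4.83 in Ctrl, Case and Dapa with the best 14851 summits, 6.2 in Ctrl, 4.83 in Case and 6.00 in Dapa with scores of at least 5 (Ctrl the highest, where it is the lowest in the list used), and 4.2, 4.50 and 4.33 within 1 kb of a start. Of the pathway genes, 2 reversed with the window: Prss8 in Dapa against Ctrl (−2.54 with 2 kb, −11.7 with 1 kb) and in db/db against Ctrl (−0.758 and −10.2), and Nedd4l with 1 kb in Case (−0.949) and db/db (−0.0309) against Ctrl. The cause was not tested. The outer Nr3c2 promoter in Dapa against Case was −12.3 (exact permutation p = 0.182) with the best 14851 and −15.0 (p = 0.223) with scores of at least 5. Leaving out mice gave −5.68 to −3.21 for Nr3c2 in Case against Ctrl, −36.1 to −26.2 for its outer promoter and 28.9 to 41.8 for its distal intron. On the log2 rank scale Nr3c2 was −1.18 (exact permutation p = 0.0801). With the replicate block of Ctrl and Case mice, Nr3c2 was −4.42 (exact sign-flip p = 0.125, smallest possible 0.0625), and the correlation of deviations between same-numbered mice, −0.0473 to 0.0421, does not pair them. Without read depth, a gene without a summit was not detected in its list, not shown to be closed.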
